A study of Solanum lycopersicum with 12 samples.

Results

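Tomato (Solanum lycopersicum) gene loci whose small-RNA reads had no main length were described across regeneration from cotyledon to callus. A locus belonged to the class when reads of all 12 libraries, pooled, gave at least 100 reads of 18 to 26 nt, with at least 10 reads in the 3 cotyledon libraries and at least 30 in the 9 callus libraries. In addition no single length could hold more than 20% of its reads, and 18 to 20 nt together had to stay under 50%. The class held 926 of the 34688 loci in the table and 18.2% of the 5075 loci that met the read minima, with unplaced loci (chromosome 0) left out. The limit on 18- to 20-nt reads removed 0 further loci. Measured read lengths and read minima thus chose the members, and what follows on pooled lengths is a description of that choice.

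The study excised cotyledons, the seed leaves, 6 days after sowing and kept them on SIM medium, on which callus formed. Callus was sampled at days 12, 14 and 16, and the reference was cotyledon at day 0, with 3 libraries per group. No genotype, cultivar or other treatment was stated in the labels. Nothing in the labels ties replicates to separate cultures, and p-values then measure only the spread between these libraries, which may be technical. The summed gene reads of a library were 456744 to 698312, and its total, recovered from the deposited TPM values, was 2769024 to 4799134. Day-12 replicate 3, day-14 replicate 1, day-16 replicate 3 and cotyledon replicate 1 were found to stand apart in earlier work on these data. Without those 4 libraries 315 members were called over the 3 times, against 369 with them.

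In plants, Dicer-like enzymes cut double-stranded RNA into pieces of set length. MicroRNAs and phased small RNAs mostly measure 21 or 22 nt, while the pieces that guide DNA methylation mostly measure 24 nt. Breakdown of longer transcripts leaves pieces with no set length, which small-RNA libraries can also capture. Loci are given by identifier, since the files pair none with a name and 0 were found in the reference gene table, and their functions were not analysed here. The chromosome is read from the identifier.

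Pooled over the members, reads were spread from 7.78% at 26 nt to 15% at 21 nt. The other loci that met the read minima had 50.2% of their reads at 21 nt and 20.8% at 24 nt. Among the members the most frequent length was 21 nt at 406 loci, 22 nt at 180, 23 nt at 102, 24 nt at 89, and 18, 19 or 20 nt at 15, 44 and 74 loci. It was 25 nt at 12 loci and 26 nt at 4. The share of a member's reads at its most frequent length had a median of 17.2% and ranged from 12.8% to the limit of 20%. The 5 loci just inside the limit had 20%, the 5 just outside it 20.03% to 20.10%, and 571 loci lay between 20% and 25%.

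Reads per member ranged from 100 to 4799 with a median of 190, and 492 members had fewer than 200 reads. A read was found in all 12 libraries at 882 of the 926 members. The spread over lengths was also described in each tissue alone, which the limit on pooled reads partly sets. Among the 339 members with at least 50 reads in callus and at least 50 in cotyledon, the median share at the most frequent length was 18.3% in callus and 18.4% in cotyledon. In callus alone 235 of these 339 stayed within 20%, in cotyledon alone 239, and in both 160. Of all 926 members, 225 stayed within 20% in both. Over 30% at one length was found at 3 members in callus and at 9 in cotyledon.

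**Figure D1:**
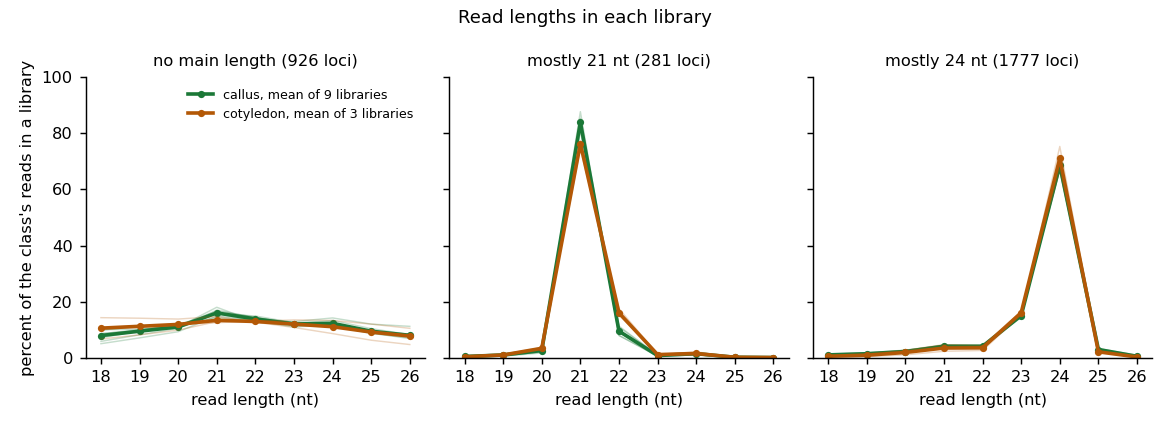
Percent of a class's reads at each read length (nt), for loci without a main length, loci with mostly 21-nt reads and loci with mostly 24-nt reads. Thin lines are single libraries and thick lines the means of the 9 callus and the 3 cotyledon libraries; the first class is nearly flat, with its highest library at 18% (21 nt), and the others peak at the length that defined them. The pooled profiles follow from how the classes were chosen.

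The profile of the members varied between libraries of one group. Reads of 18 to 20 nt made up 32.7%, 29.7% and 30.2% of the members' reads at day 12, 21.4%, 27.9% and 24.6% at day 14, with 29.3%, 28.1% and 31.7% at day 16, against 24.7%, 42.2% and 34.1% in the cotyledon libraries. Callus and cotyledon libraries thus overlapped, with the widest spread among the cotyledon libraries and the lowest values in 2 day-14 libraries. Reads of 21 nt were 14.3% to 18% of the members' reads in the 9 callus libraries and 12.5% to 14.7% in the 3 cotyledon libraries, so that the tissues overlapped.

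Whether the lengths at a member shifted was tested by comparing the change of reads of 22 to 26 nt with that of reads of 18 to 21 nt within each library. This edgeR quasi-likelihood test ran on 5087 loci, of which 5.41% were called at an adjusted p under 0.05. Of 724 members tested, 21 shifted towards the longer and 3 towards the shorter reads in callus (3.31% called). The number rested on single libraries. It was 8 without cotyledon replicate 1 or without cotyledon replicate 2, 10 without cotyledon replicate 3, and 6 without day-12 callus replicate 1, of which 2 shifted towards the longer and 4 towards the shorter reads.

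The members held a smaller part of the gene reads in callus than in cotyledon. Their part was 5.99%, 4.10% and 3.31% of the gene reads at day 12, 3.22%, 3.33% and 3.34% at day 14, with 2.70%, 3.62% and 4.06% at day 16, against 6.18%, 6.78% and 6.30% in the cotyledon libraries. Every callus library lay below every cotyledon library, and day-12 replicate 1 came close to the cotyledon range. The mean was 3.74% ± 0.946 in callus (SD, n = 9) and 6.42% ± 0.319 in cotyledon (SD, n = 3). Relative to the library totals the means were 0.487% ± 0.148 in callus and 1.07% ± 0.170 in cotyledon, and the libraries again did not overlap. Loci with mostly 24-nt reads were also lower in every callus library (2.00% to 2.36% of the total) than in cotyledon (2.97% to 3.58%). Those with mostly 21-nt reads overlapped (4.69% to 7.57% and 4.03% to 6.88%). Their part of the gene reads averaged 44.3% in callus and 32.5% in cotyledon, and a larger part for one class lowers that of others. On library totals a lower level in callus was thus not particular to the members. As part of the gene reads, loci with mostly 24-nt reads overlapped, at 13.8% to 20.9% in callus and 16.1% to 24.3% in cotyledon. The other loci meeting the read minima overlapped too (14.6% to 18.5% and 16.6% to 17.7%). On that scale, among these classes only the members were lower in every callus library. In bulk tissue, fewer cells with the members' RNA and less of it per cell cannot be told apart.

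**Figure D2:**
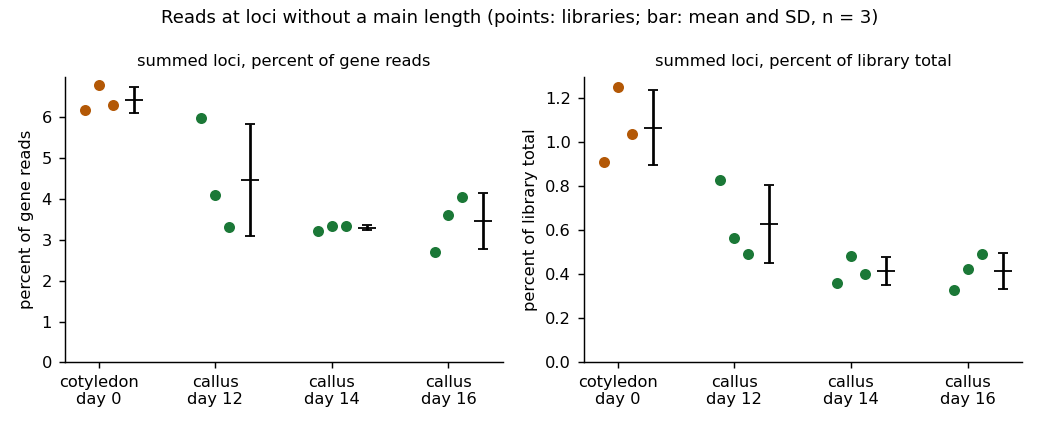
Reads of all 926 loci without a main length in each library, as percent of gene reads (left) and of the library total (right), by day; points are libraries and bars the mean and SD of 3. Callus libraries lie below the cotyledon libraries in both panels, with day-12 replicate 1 highest among them at 5.99% and 0.830%.

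Although few in reads, the members made up much of the gene reads at lengths outside 21 to 24 nt. At 18 nt they held a median of 15% of the gene reads of the callus libraries and 26.5% of those of the cotyledon libraries. At 26 nt they held 21.7% in callus and 24.4% in cotyledon. At 21 nt their part was 1.27% in callus and 2.63% in cotyledon, and at 24 nt it was 2.18% and 2.97%. The members are even by rule, so a larger part at the rarer lengths is partly built in.

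Both rises and falls were found among the members, and the falls were larger. The test was edgeR's quasi-likelihood test on reads summed over lengths, over all 12 libraries and 6729 loci, with Benjamini-Hochberg adjustment. Of 921 members tested, 142 rose and 227 fell in callus (the 3 times averaged) against cotyledon, and 5 members were not tested. In all 40.1% of the members were called, close to the 40.5% of all loci tested and the 39.0% of loci meeting the read minima. The share called is thus no result about the members. The members that fell took 0.630% ± 0.150 of the gene reads in callus (SD, n = 9) and 4.46% ± 0.155 in cotyledon (SD, n = 3). The members that rose took 1.08% ± 0.272 in callus and 0.384% ± 0.0345 in cotyledon. The 552 members without a call took 2.02% ± 0.540 in callus and 1.57% ± 0.160 in cotyledon. These groups were chosen by the change itself, so their levels are a description.

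The members that fell did so by more than those that rose. The median fall was 2.66 on the log2 scale, and 155 of the 227 falls were larger than 4-fold. The median rise was 1.40, and 25 of the 142 rises were larger than 4-fold. Falls of over 4-fold were made by 16.8% of the members tested, by 8.90% of all loci tested and by 6.26% of the other loci that met the read minima. Rises of over 4-fold were made by 2.71% of the members, 6.42% of all loci and 2.40% of those other loci. Because a member needed at least 10 cotyledon reads and at least 30 callus reads, rises from nothing and falls to nothing could not enter the class.

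Most members nevertheless changed little, and the typical one was slightly higher in callus. The log2 change was above 0 at 528 of the 921 members (57.3%), with a median of 0.19 against 0.10 over all loci tested. It lay between 0 and 1 at 375 members and between -1 and 0 at 174. A further 64 lay between -2 and -1, and 155 below -2. On the scale of library totals the median was -0.05 for the members and -0.21 for all loci, while 76 members rose and 251 fell. The sign of the median thus depended on the scale. Whether it lay above that of all loci varied with the processing: it was 0.16 against 0.20 by DESeq2, 0.21 against 0.38 with no filter on low counts, and 0.12 against 0.15 without cotyledon replicate 1. DESeq2 called 92 rises and 213 falls.

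**Figure D3:**
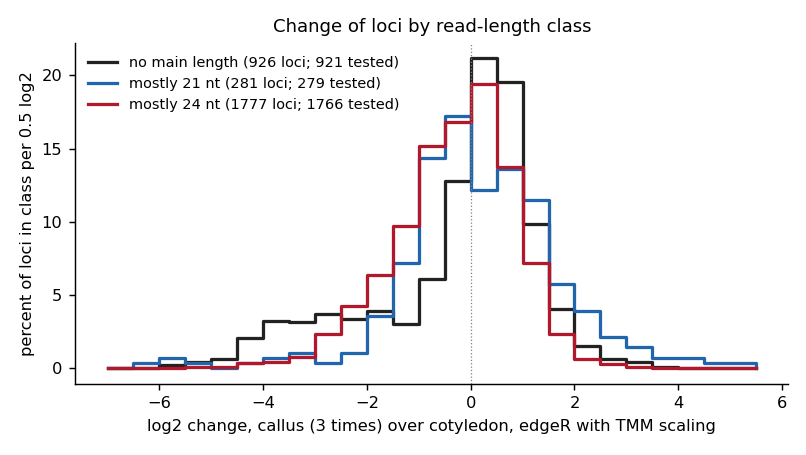
Percent of loci of each read-length class per 0.5 log2 of change in callus (3 times averaged) over cotyledon. Loci without a main length (black) have a tall body just above 0 and a separate shoulder at falls of more than 4-fold, where 16.8% of them lie, against 5.02% of the loci with mostly 21-nt reads and 8.27% of those with mostly 24-nt reads.

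Loci with one main length changed with another balance of rises and falls. Among 279 loci tested with over 50% of their reads at 21 nt, and the same read minima, 74 rose and 73 fell, with a median log2 change of 0.12. Among 1766 with over 50% at 24 nt, 201 rose and 512 fell, with a median of -0.17. Falls of over 4-fold were 19.2% of all falls at 21-nt loci and 28.3% at 24-nt loci, against 68.3% at loci without a main length. Rises of over 4-fold were 36.5% of the rises at 21-nt loci, 6.97% at 24-nt loci and 17.6% at loci without a main length. No test of the difference between the classes was made, and the counts and medians describe these loci only.

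The share called varied along the range of evenness. Of the 112 loci tested with at most 15% at any length, 14 rose and 49 fell, which is 56.2% called, with a median log2 change of -0.31. Among the 809 with over 15% and up to 20%, 37.8% were called and the median was 0.26. In the bands of 20% to 25% and 25% to 35%, just outside the class, 32.2% and 31.3% were called and the medians were 0.28 and 0.29. The share called was 38.9% at 35% to 50% and 42.5% above 50%. Depth moved with evenness: the members tested with at most 15% had a median of 319 reads and the others 182, and the part of depth in this pattern was not tested.

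Level and change went together within the class, which is partly built in. Members were chosen on reads pooled over unequal numbers of callus and cotyledon libraries, while the level used here weighs both tissues alike. At like pooled reads, a locus read mostly in cotyledon thus has a higher level than one read mostly in callus. This also bears on the members of highest level. With the members divided into 4 bands of like size by the mean of the tissue means, in CPM (counts scaled to the gene reads of a library), the lowest band (13.4 to 22.2 CPM) had 30 rises and 2 falls. The second had 36 and 31, and the third 41 and 58. The highest band (53.9 to 1136 CPM) had 35 rises and 136 falls, with a median log2 change of -1.77. The read minima set the lower edge of this pattern, since a locus of low mean level with a large fall would have had too few callus reads. The 20 members of highest level had 17.1% of the members' reads, and 14 of them fell and 5 rose. They took 0.496% ± 0.130 of the gene reads in callus (SD, n = 9) and 1.55% ± 0.0834 in cotyledon (SD, n = 3). The other 906 members took 3.24% ± 0.824 and 4.87% ± 0.236, and here the libraries overlapped, at 2.29% to 5.21% in callus (highest in day-12 replicate 1) and 4.70% to 5.14% in cotyledon.

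**Figure D4:**
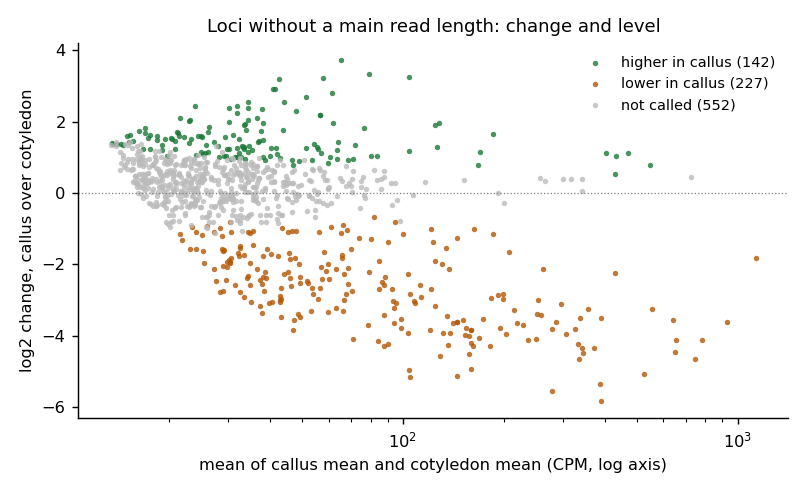
Log2 change in callus over cotyledon against the mean of both tissues' CPM (log axis) for 921 loci without a main read length. Green points are the 142 loci higher in callus, orange points the 227 lower, and grey points the 552 without a call. Falls reach further from 0 and to higher levels than rises, and the link with level follows in part from how level was defined.

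At members that were called, the read lengths moved together. Of the 142 that rose, 87 were higher in callus at all 9 lengths, and 141 at 7 or more. Of the 227 that fell, 179 were lower at all 9 lengths, and 220 at 7 or more. Among called loci with mostly 24-nt reads, 16 of the 512 that fell were lower at all 9 lengths, and among those with mostly 21-nt reads 8 of the 73 that fell. Of their rises, 67 of 201 at 24-nt loci and 30 of 74 at 21-nt loci were higher at all 9 lengths, and 87.1% and 82.4% at 7 or more. Members are even by rule and were called on reads summed over lengths, so a shared direction is partly built in. Loci with a main length have few reads at the other lengths, and the part of this in the difference was not tested.

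The most abundant members did not share one direction. Solyc12g094620.3, on chromosome 12, had 4799 reads in all, with 7.69% to 13.3% of them at each length. It had 764, 654 and 379 reads at day 12, 197, 363 and 354 at day 14, then 444, 446 and 386 at day 16, against 232, 343 and 237 in cotyledon. It was called at day 12 (log2 change 0.80, SE 0.27, edgeR adjusted p = 0.0280) but not over the 3 times (0.46, adjusted p = 0.108). The day-12 call was lost without cotyledon replicate 1 (edgeR adjusted p = 0.103), cotyledon replicate 3 (0.0686), day-12 replicate 1 (0.0961) or day-12 replicate 2 (0.0547), and that over the 3 times was gained without day-14 replicate 1 (0.0499). Its callus and cotyledon libraries overlapped. Solyc09g097770.3, on chromosome 9, had 4782 reads and the most even profile of all members, with 8.47% to 12.8% at each length. It had 352, 441 and 361 reads at day 12, 150, 272 and 196 at day 14, then 243, 187 and 211 at day 16, against 605, 1016 and 748 in cotyledon. All callus libraries lay below the cotyledon libraries, and its log2 change over the 3 times was -1.81 (SE 0.19, edgeR adjusted p = 7.20e-07). The next most even member, Solyc03g006140.3, had 124 reads and no call over the 3 times (log2 change -0.89, SE 0.41, edgeR adjusted p = 0.0928), but it was called without day-14 replicate 2 (edgeR adjusted p = 0.0405).

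The largest rises over the 3 callus times were modest in reads. Solyc03g122350.3, on chromosome 3, had 144, 58 and 46 reads at day 12, 53, 78 and 41 at day 14, then 54, 56 and 45 at day 16, against 4, 3 and 5 in the cotyledon libraries. It averaged 122 ± 49.1 CPM in callus (SD, n = 9) and 8.96 ± 3.03 CPM in cotyledon (SD, n = 3). Its log2 change was 3.74 (SE 0.43, edgeR adjusted p = 1.64e-06). Solyc04g071070.2, on chromosome 4, had 113, 114 and 77 reads at day 12, 27, 75 and 77 at day 14, then 61, 82 and 55 at day 16, against 9, 4 and 6 in cotyledon. At both loci every callus library lay above every cotyledon library, and their most frequent lengths were 21 nt (19.1%) and 22 nt (17.0%). The log2 change of the second was 3.34 (SE 0.37, edgeR adjusted p = 1.07e-06).

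The largest falls were of loci abundant in each cotyledon library. Solyc02g085950.5, on chromosome 2, had 11, 16 and 4 reads at day 12, 3, 17 and 15 at day 14, then 0, 1 and 7 at day 16, against 309, 421 and 311 in cotyledon. It averaged 15.3 ± 11.9 CPM in callus (SD, n = 9) and 768 ± 151 CPM in cotyledon (SD, n = 3). Its log2 change was -5.83 (SE 0.37, edgeR adjusted p = 9.55e-10), or -6.51 without day-16 replicate 3. Solyc07g041720.1, on chromosome 7, had 7, 10 and 2 reads at day 12, 0, 13 and 4 at day 14, then 2, 0 and 16 at day 16, against 277, 282 and 193 in cotyledon. No callus library came near the cotyledon libraries at either locus, while the callus libraries differed among themselves by several-fold. The log2 change of the second was -5.54 (SE 0.47, edgeR adjusted p = 3.99e-08), or -6.31 without day-16 replicate 3.

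**Figure D5:**
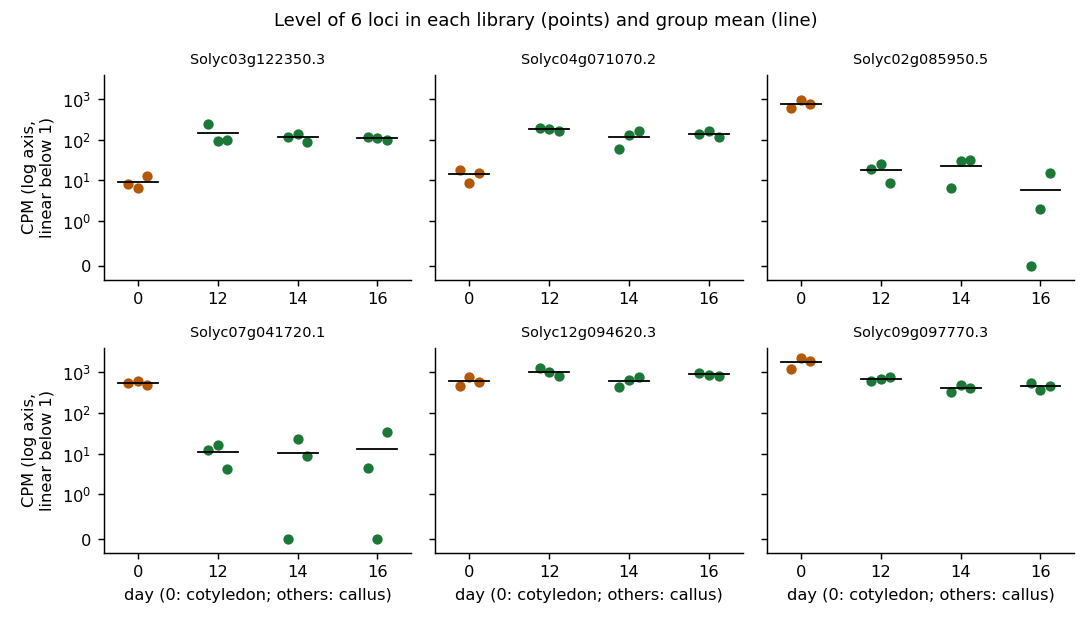
Level (CPM, log axis, linear below 1) of 6 loci without a main read length in each library by day, with group means as lines. The first pair lie at 58.7 CPM or more in callus and at most at 18 CPM in cotyledon, the second pair at most at 34.4 CPM in callus and at 477 CPM or more in cotyledon, and the last pair are the members with the most reads.

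The first callus time, day 12, was set against cotyledon. Of the 921 members 162 rose and 191 fell (38.3% called, against 33.5% of all loci tested and 32.7% of loci meeting the read minima). Falls alone were 19.2% of all loci and 20.4% of those meeting the minima. The median log2 change was 0.40, against 0.08 over all loci. Day-12 and cotyledon libraries did not overlap at 51.5% of the members and 46.6% of all loci tested. Solyc04g007760.3 had 200, 162 and 123 reads at day 12, against 8, 9 and 7 in cotyledon. Its log2 change was 4.0 (SE 0.38, edgeR adjusted p = 5.55e-07). Solyc03g122350.3, described above, also changed by 4.0 on the log2 scale. Solyc09g092110.5 had 1, 1 and 0 reads at day 12, against 92, 89 and 92 in cotyledon, a ratio of 0.00648 of gene reads (95% exact counting interval 0.000781 to 0.0236, which covers counting error only). Solyc02g070950.1 had 3, 1 and 1 reads at day 12, against 151, 118 and 82 in cotyledon. The edgeR adjusted p was 5.55e-07 for the first fall and 5.60e-06 for the second.

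Reads at both loci were also given for the later times. Solyc09g092110.5 had 1, 4 and 10 reads at day 14 and 9, 6 and 2 at day 16. Solyc02g070950.1 had 5, 29 and 10 reads at day 14 and 4, 4 and 28 at day 16. At the second locus each later library had more reads than any day-12 library, and at the first each day-16 library did. Both loci were picked for their large falls at day 12, so more reads at later times follow in part from that choice.

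At day 14, 85 members rose and 214 fell (32.5% called, against 31.3% of all loci tested and 29.6% of loci meeting the read minima), with a median log2 change of 0.08 against 0.10 over all loci, or of -0.04 without cotyledon replicate 1. The share of the members' calls that were rises was 28.4% (44.8% over all loci tested), and 16.1% when scaled by library totals. Solyc05g007830.3 had 62, 81 and 51 reads at day 14, against 4, 3 and 7 in cotyledon (log2 change 3.60, SE 0.40, edgeR adjusted p = 3.37e-06), and Solyc03g122350.3 again rose, by 3.64. Solyc01g106480.4 had 1, 4 and 0 reads, against 79, 83 and 65 in cotyledon. It changed by -5.56 on the log2 scale (SE 0.61, edgeR adjusted p = 3.06e-06), or by -6.95 without day-14 replicate 2. Solyc07g041720.1 changed by -5.61 (edgeR adjusted p = 1.84e-05), or by -6.89 without that library.

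At day 16, 78 members rose and 215 fell (31.8% called, against 30.9% of all loci tested and 29.3% of loci meeting the read minima), with a median log2 change of 0.10 against 0.11 over all loci, or of -0.03 without cotyledon replicate 1. Without that library 45 members rose. The share of the members' calls that were rises was 26.6% (43.5% over all loci tested), and 12.2% when scaled by library totals. Solyc04g007760.3 and Solyc03g122350.3 had the largest rises, of 3.47 and 3.58 on the log2 scale. Solyc02g085940.5, the identifier next to Solyc02g085950.5, had 5, 2 and 12 reads at day 16, against 351, 375 and 304 in cotyledon. Its log2 change was -5.80 (SE 0.43, edgeR adjusted p = 4.38e-08), or -6.60 without day-16 replicate 3. Solyc02g085950.5 changed by -7.04 (SE 0.64, edgeR adjusted p = 3.71e-07), or by -9.18 without day-16 replicate 3, which held 7 of its 8 reads. The sources used here do not state how reads matching several loci were counted, and neighbouring loci of like sequence may share reads.

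Across the 3 comparisons, which share the same cotyledon libraries, 184 members fell at every time and 51 rose at every time. At some time 226 fell and 180 rose, 0 were called in opposite directions, and 515 of the 921 tested had no call at any time. Of all 6729 loci tested, 892 fell and 579 rose at every time. At some time 1556 of all loci fell and 1351 rose, 0 in opposite directions, and 3822 had no call. The shares called at some time or never were thus near those of all loci and are no result about the members. The numbers of members that fell were alike at the 3 times (191, 214 and 215), whereas 162 rose at day 12, 85 at day 14 and 78 at day 16. The falls were 20.7%, 23.2% and 23.3% of the members tested, against 19.2%, 17.3% and 17.5% of all loci tested. The rises were 17.6%, 9.23% and 8.47% of the members, against 14.4%, 14.0% and 13.4% of all loci. Without day-12 replicate 1, which had the highest summed level, 111 rose at day 12. DESeq2 called 104, 54 and 42 rises at days 12, 14 and 16.

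Callus times were compared directly. Against day 12 the members were lower at day 14 by a median of 0.29 on the log2 scale (a change of -0.29, against 0.00 over all loci and 0.36 at loci with mostly 24-nt reads). At day 16 the median was -0.33, against 0.02 over all loci and 0.32 at the 24-nt loci. The libraries did not overlap at 18% of the members between days 14 and 12 (15.7% of all loci tested). Here 144 members were lower and 22 higher at day 14, against 455 lower and 599 higher of all loci tested. Between days 16 and 12 the share was 18.9% (15.6% of all loci). At day 16, 149 members were lower and 25 higher, against 464 and 584 of all loci. No single member passed the edgeR test (0 called, 0% of all loci at day 14 and 0.0594% at day 16). At an unadjusted p under 0.05 there were 99 of 921 members at day 14 and 111 at day 16. Over the 6729 loci tested there were 602 and 571. DESeq2 called 1 member at day 14 and 0 at day 16. Between days 16 and 14 the median was -0.04, or 0.05 without day-14 replicate 2 or without day-16 replicate 1. For these days 0 members were called by edgeR (0% of all loci) and 0 by DESeq2. At an unadjusted p under 0.05 there were 65 members, against 356 of the 6729 loci tested. Leaving out a day-12 or day-14 library gave medians of -0.36 to -0.18 between days 14 and 12. Between days 16 and 12, leaving out 1 of their libraries gave -0.46 to -0.22. The values nearest 0, -0.18 and -0.22, were those without day-12 replicate 1.

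The spread between replicates at the members was near that of all loci. The median biological coefficient of variation fitted by edgeR was 0.303 at members, 0.283 at loci with mostly 21-nt reads, 0.299 at those with mostly 24-nt reads and 0.311 over all loci tested.

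The authors tested each read length apart, which splits the reads of an even locus over 9 tests. In the authors' deposited table, 199 of the 926 members had an adjusted p under 0.05 at some length between day 12 and cotyledon, 159 between day 14 and cotyledon and 149 between day 16 and cotyledon. These were 21.5%, 17.2% and 16.1% of the members. At day 12 the share was 39.1% at loci with mostly 21-nt reads and 17.8% at those with mostly 24-nt reads. The share over all loci was not computed for the deposited results. For the 3 callus times against cotyledon, the summed reads gave 353, 299 and 293 calls in edgeR, of which 186, 149 and 142 were also in the authors' deposited table. DESeq2 on the summed reads called 283, 253 and 237 members. The deposited results came from DESeq2, so software and splitting differ together from the edgeR counts. The part of splitting in the difference was not tested. For loci with mostly 21-nt reads, the authors' deposited table called 110 loci at day 12, against 121 by summed reads, and for those with mostly 24-nt reads 317 against 570. No member had calls in both directions in the authors' deposited table (0 at each time). At day 12 the falls in that authors' deposited table ranged from 53 members at 24 nt to 85 at 20 nt, and the rises from 12 members at 22 and at 23 nt to 36 at 26 nt. These counts have unlike bases, since not every member had an adjusted p at each length. One was given at 354 members at 24 nt, 583 at 20 nt, 515 at 22 nt, 431 at 23 nt and 357 at 26 nt.

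By their identifiers the members lay on all 12 chromosomes. They made up 26.5% of the loci meeting the read minima on chromosome 6 (108 of 407) and 14.1% on chromosome 9 (58 of 412), the highest and lowest shares. Of the 926 members, 66 were followed in the order of identifiers by another member (7.13%), against 2.67% of all loci followed by a member. All loci here include those under the read minima, which members had to meet. At 24 of these 66 pairs both loci were called over the 3 times, in the same direction at 23, of which 19 fell and 4 rose. Neighbouring pairs of other loci were not counted in this way. Neighbouring genes can be copies that share reads. By counts over libraries and lengths that differed by at most 10%, 14 members formed 7 near-identical sets.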

How the data were processed

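Small RNAs of 9 callus and 3 cotyledon libraries were analysed from the authors' tables. Both RNA ends received ligated adapters and amplified cDNA was size-selected by gel, per the labels' protocols. The submitters' processing notes name fastp, Bowtie and DESeq2; their versions, settings and the genome build are not given in the sources used here. The authors deposited raw counts per locus for 9 read lengths in each library, per the file headers (108 columns, 0 of them unused). They deposited TPM by length and strand; with 1 constant per library, 216 of 216 values came out as whole reads within 0.05, and the constant served as library total. Their own DESeq2 results per length were deposited as log2 changes with p-values.

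Counts were summed over lengths and tested with edgeR 4.0.16 in R 4.3.3 (TMM, filterByExpr, quasi-likelihood F test, Benjamini-Hochberg at 0.05, 6729 loci, common biological coefficient of variation 0.333); DESeq2 1.42.0 was an alternative. CPM follow TMM scaling. SE is the log2 change over the square root of F. Fits were tested on simulated data. Same-numbered replicates did not deviate together (correlations -0.263 to 0.195), and no block was used. Members and lists were chosen with earlier results of these data known. Named loci are the 2 largest rises and 2 largest falls per comparison (called, mean of at least 10 CPM, no overlap), the 2 with most reads and the 2 most even. Reads carry no molecular identifiers, and depth limits loci near 100 reads.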

Additional observations from a re-analysis of the deposited data

Results flagged for a closer look

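Replicate 1 of day-12 callus stood apart from the other callus libraries in the summed level of the loci without a main read length. It had 5.99% of gene reads at these loci, and the gap to the next library was 0.574 of the range of the 9 callus libraries. It had 0.830% of the library total, with a gap of 0.527 of the range. Chance alone flags about 1 in 20 such groups. The 9 callus libraries came from 3 times, so that rate may not hold for them. Without this library, the ratio of the callus to the cotyledon mean was 0.539, against 0.583 with it, and 135 members rose and 224 fell over the 3 times.

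Among the 578 loci on unplaced chromosome 0, which the rule leaves out, 27 met all its other terms and held 131429 reads over the 12 libraries. They entered no comparison of members.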

How the results depend on the processing

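Over all alternatives and results, 168 values that answer a comparison stayed within the set margin and 27 moved; of the others 450 stayed, 4 gained and 6 lost a call, 3 moved and 17 changed sign. Leaving out 1 library at a time gave 293 to 338 members called at day 12, 266 to 284 at day 14, 245 to 276 at day 16 and 316 to 366 over the 3 times, and a ratio of callus to cotyledon level of 0.539 to 0.603. The members named for the largest rises and falls kept direction and call in every alternative run, as did Solyc09g097770.3. Solyc12g094620.3 at day 12 also lost its call on library totals (edgeR adjusted p = 0.0630) and with no filter (0.0526), and it gained one over the 3 times with reads outside 21, 22 and 24 nt alone (0.0397). Solyc03g006140.3 gained one on library totals (0.0439).

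A limit of 15% on the largest length left 112 members tested. Of these 62, 57, 58 and 63 were called at days 12, 14 and 16 and over the 3 times. The shares were 55.4%, 50.9%, 51.8% and 56.2%, against 33.5%, 31.3%, 30.9% and 40.5% of all loci tested. The median log2 changes were -0.07, -0.54, -0.54 and -0.31, and over the 3 times 14 rose and 49 fell. This limit left 4 members with a shift of length, a level ratio of 0.313, a 21-nt share 1.26 points higher in callus, and 54 members called by length at day 12. A limit of 20% in each tissue alone left 224 members tested, of which 111, 103, 100 and 110 were called (49.6%, 46.0%, 44.6% and 49.1%). The medians were -0.23, -0.54, -0.59 and -0.41, and over the 3 times 17 rose and 93 fell. This second limit left 6 length shifts, a ratio of 0.432 and 80 called by length. Both limits admit fewer members. With few reads a single length passes 20% more easily by counting alone, and 148 members had under 20 cotyledon reads. The limit in each tissue thus favours members with more cotyledon reads, which bears on its falls, medians and ratio. How far it does was not tested.

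Median signs near 0 turned easily. On library totals they were -0.26 at day 14, -0.25 at day 16 and -0.05 over the 3 times. Leaving out 1 library gave -0.04 (without cotyledon replicate 1) to 0.25 at day 14, -0.03 (without the same library) to 0.21 at day 16, and -0.13 to 0.05 between days 16 and 14 (0.05 without day-14 replicate 2 or day-16 replicate 1). Without day-12 replicate 3, day-14 replicate 1, day-16 replicate 3 and cotyledon replicate 1, which stood apart, they were -0.04 at day 14 and -0.17 at day 16. The cause was not tested.

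Between callus times, days 14 and 12 gave 1 member by DESeq2, 8 with no filter and 0 to 1 without 1 library. Days 16 and 12 gave 4 with no filter and 2 without those 4 libraries, and days 16 and 14 gave 2 and 1. The length shift was called at 6 to 24 members without 1 library, and at 38 with the split between 22 and 23 nt. With the replicate block, which the labels do not support as a pairing (4 of 12 libraries correlated best with their own number), 334, 287, 277 and 346 members were called. The filter of at least 10 CPM in 3 libraries kept more loci than the one used.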

Other observations

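Strand was given by length for all gene reads and not by locus, so that the strand of the members' reads was not analysed here. In the authors' TPM values the sense strand held 54.0% of 24-nt gene reads in callus (median of 9 libraries) and 55.5% in cotyledon (median of 3). At 26 nt it held 87.9% in callus and 89.2% in cotyledon, and at 25 nt 76.3% and 84.1%. At 18 nt it held 74.4% in callus (67.8% to 80.0% over the libraries) and 87.7% in cotyledon (87.6% to 87.9%), so that the libraries did not overlap. At 19 nt it held 73.4% in callus and 86.0% in cotyledon, and at 21 nt 68.7% and 69.4%.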
